A study of Rattus norvegicus with 18 samples.

Results

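The enzymes of glycolysis and of the citric acid cycle were followed through differentiation in primary rat oligodendrocyte progenitors (OLPs), with and without PD169316, an inhibitor of p38 MAP kinases. The set was defined by a list of 35 gene symbols, matched to the symbols of the array annotation, and 31 of the 35 had a named probe. Hk1, Pgam1, Pdha1 and Fh had none and were not analysed here. The annotation names 13337 genes, of which 7558 were detected well enough to be tested, and 30 of the 31 enzymes were among these. The exception was Pkm, the pyruvate kinase of the last step of glycolysis, whose only named probe was detected on 2 of 18 arrays, so no level of Pkm is given. Of the 33 probes for these genes 31 were tested. The pair of Aldoa probes moved alike, a second Idh2 probe was not tested, and each gene is given by its probe with the highest mean.

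RNA of each sample was read on its own Illumina RatRef-12 array. There were 6 groups of 3 samples, namely cells at day 0, cells at day 1 and day 2 with vehicle (called control) or with PD169316, and cells at day 4 with PD169316. The cells came from brains of newborn Sprague-Dawley rats, the vehicle was DMSO, and the day counts differentiation after the mitogens were withdrawn. No day 4 control is labelled, so at day 4 time in culture and inhibitor cannot be told apart, and the treatment text of the labels speaks of 24 or 48 hours. Since the labels leave open whether the 3 samples of a group were grown separately, each p-value speaks only for the spread among these samples, part of which may be technical. Values are log2 intensities after background correction and quantile normalization, and differences between groups are log2 differences of means (n = 3 arrays each) with their standard error. They come from a single limma model of all 18 arrays, in which 10574 probes were tested and a probe passed at a Benjamini-Hochberg adjusted p under 0.05. In RNA from whole cultures, fewer cells of a type and less RNA per cell cannot be told apart.

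Glycolysis splits glucose into pyruvate in the cytosol, and lactate dehydrogenase turns pyruvate into lactate or back. The pyruvate dehydrogenase complex carries pyruvate into the mitochondrial citric acid cycle, and pyruvate dehydrogenase kinases switch that complex off by phosphorylation. Oligodendrocytes are known to rely on glycolysis after myelination and to pass lactate to axons, while progenitors need carbon for growth and lipid synthesis. Several steps have isoenzymes from separate genes, which are compared here by their changes, since intensities of different probes are not on 1 scale.

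Detected probes numbered 9789 to 10773 per array, and the enzyme probes rested on a median of 42 beads with a bead standard error of 2.85% of the mean. All 11 measured oligodendrocyte lineage markers were detected on every array of each group. Cx3cr1, a microglial marker, was detected on no array after day 0, and Cdh5, an endothelial marker, on none at any time. By contrast, the microglial markers Aif1, Tyrobp, C1qa, C1qb and C1qc, the astrocyte marker Gfap and the fibroblast marker Col1a2 were detected on every array. Arrays of a group correlated at r = 0.992 or above over all tested probes in the 4 groups outside day 2 (n = 10574 probes), but at 0.986 to 0.996 in day 2 control and 0.980 to 0.996 in day 2 PD169316. The library labelled day 2 control 3 lay closest to day 2 PD169316 2, with r = 0.997. The library labelled day 2 PD169316 1 lay closest to day 2 control 2, with r = 0.994. Both were used under their labels. Counts of enzymes that passed and leading values that rest on them are also given without them, with no p-value printed. Such counts still use the adjusted p threshold. They are no independent test, since these libraries were picked by their own values. No share of all probes from the same fit is set beside them, so they show no trait particular to the enzymes.

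The widest change was between day 0 and day 4 PD169316. Of the 30 enzymes tested, 11 rose and 7 fell, which is 60% of the set, while 50.7% of all probes passed in this comparison, 23.2% higher and 27.5% lower. On the deposited values, neither background-corrected nor normalized, 10 passed, 6 higher and 4 lower. The day 4 arrays did not overlap those of day 0 for 19 of the 30 enzymes (63.3%) and for 62.1% of all probes. The median difference of the enzymes was 0.03, against -0.03 over all probes. Within the set, the direction differed by role: of 11 glycolytic enzymes 6 rose and 1 fell, of 12 enzymes of the citric acid cycle, cytosolic forms included, 1 rose and 5 fell, and of the 5 measured genes of the pyruvate dehydrogenase complex and its kinases 3 rose and none fell.

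**Figure D1:**
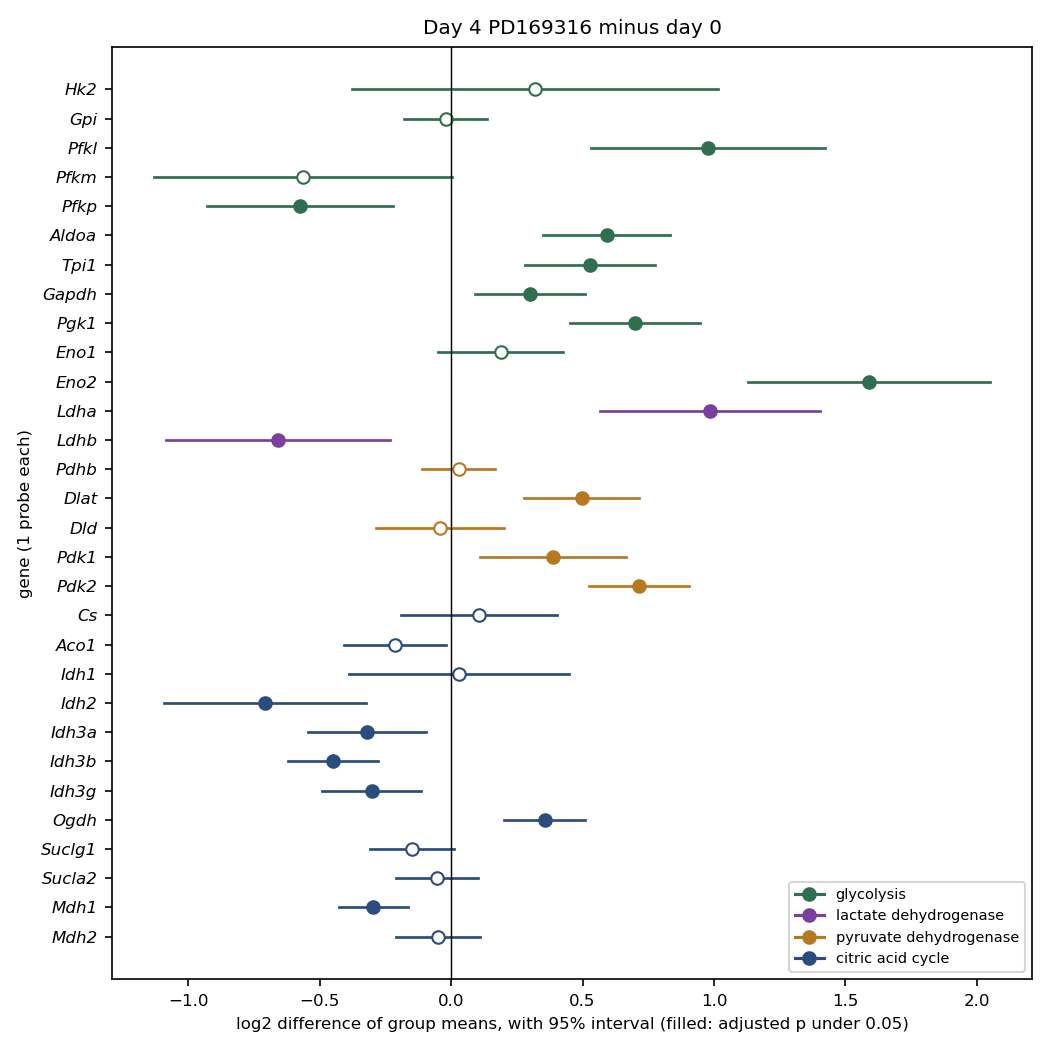
Log2 difference of day 4 PD169316 minus day 0 for each of the 30 enzymes tested (x axis), with its 95% interval as a line and a filled point where the adjusted p was under 0.05. The points of glycolysis (green) lie mostly to the right, with Eno2 farthest at 1.59, and the filled points of the citric acid cycle (blue) lie to the left except Ogdh at 0.36.

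Eno2, the enolase isoenzyme best known from neurons, rose most. Its values were 11.59, 11.76 and 11.78 at day 0, 12.59, 12.59 and 12.56 in day 1 control, and 12.71, 12.85 and 12.64 in day 1 PD169316. At day 4 PD169316 they were 13.37, 13.27 and 13.26. Every array after day 0 lay above the day 0 arrays, and the difference at day 4 was 1.59 ± 0.22 (SE; 3.01-fold, limma adjusted p = 2.38e-05). Eno1, the widely expressed enolase, was at 8.67 to 8.86 at day 0 and 8.86 to 9.13 at day 4, and its difference of 0.19 ± 0.11 did not pass (adjusted p = 0.174).

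Ldha encodes the lactate dehydrogenase subunit that favours lactate formation, and Ldhb the subunit that favours its use, and the pair moved in opposite directions. Ldha was at 12.23, 12.65 and 12.43 at day 0 and at 13.45, 13.33 and 13.48 at day 4 PD169316, a difference of 0.98 ± 0.20 (1.98-fold, adjusted p = 0.0007). Ldhb was at 12.70, 12.75 and 12.66 at day 0 and at 12.17, 11.86 and 12.11 at day 4, a difference of -0.66 ± 0.20 (1.58-fold lower, adjusted p = 0.0124). The day 4 arrays did not overlap those of day 0 for either gene. Without the library labelled day 4 PD169316 2 the adjusted p of Ldhb became 0.0542.

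The 3 subunits of phosphofructokinase, the enzyme of the committed step of glycolysis, also parted. Pfkl, the liver-type subunit, was at 6.57, 7.12 and 7.13 at day 0 and at 8.07, 7.45 and 8.24 at day 4, a difference of 0.98 ± 0.21 (adjusted p = 0.00121). Pfkp, the platelet-type subunit, was at 10.77, 10.64 and 10.57 at day 0 and at 10.29, 9.76 and 10.20 at day 4, a difference of -0.58 ± 0.17 (adjusted p = 0.00894, or 0.0551 without day 4 PD169316 2). The muscle-type subunit Pfkm was lower on all day 4 arrays than at day 0, but its difference of -0.56 had a standard error of 0.27 and did not pass (adjusted p = 0.0909).

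Lower in the pathway, Pgk1, which makes the first ATP of glycolysis, was at 12.28, 12.45 and 12.41 at day 0 and at 13.07, 13.05 and 13.11 at day 4 (difference 0.70 ± 0.12, adjusted p = 0.000155). The aldolase Aldoa rose by 0.59 ± 0.11, the triosephosphate isomerase Tpi1 by 0.53 ± 0.12 and Gapdh, often used as a reference gene, by 0.30 ± 0.10. None of these 4 groups of day 4 arrays overlapped day 0. Hexokinase 2 (Hk2), which traps glucose in the cell, and the isomerase Gpi did not pass, with differences of 0.32 and -0.02.

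At the entry to the citric acid cycle, the pyruvate dehydrogenase kinase Pdk2 was at 9.73, 10.09 and 10.00 at day 0 and at 10.64, 10.68 and 10.64 at day 4, a difference of 0.71 ± 0.09 (adjusted p = 1.12e-05). Dlat, the acetyltransferase core of the complex, rose by 0.50 ± 0.10 (adjusted p = 0.000933). Pdk1, a kinase induced by low oxygen in many cells, rose by 0.39 ± 0.13 (adjusted p = 0.0209), though its arrays overlapped, at 8.12, 8.62 and 8.41 at day 0 and 8.88, 8.50 and 8.93 at day 4. Pdhb, a subunit of the first enzyme of the complex, and Dld, its dihydrolipoyl dehydrogenase, had differences of 0.03 and -0.04 that did not pass.

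In the citric acid cycle the mitochondrial isocitrate dehydrogenases fell. Idh2, the mitochondrial NADP-dependent form, was at 10.28, 10.05 and 10.09 at day 0 and at 9.44, 9.45 and 9.41 at day 4, a difference of -0.71 ± 0.18 (1.63-fold lower, adjusted p = 0.00409). All 3 subunits of the NAD-dependent enzyme of the cycle passed in the same direction, Idh3b by -0.45 ± 0.08, Idh3a by -0.32 ± 0.10 and Idh3g by -0.30 ± 0.09. The signal of Idh3a was low, at 5.74 to 6.13 on the day 2 arrays where Idh3b was at 10.76 to 11.03, so its difference is less certain. The cytosolic form Idh1 was at 13.27 to 13.34 at day 0 and 13.08 to 13.47 at day 4 and did not pass (difference 0.03, 95% interval -0.39 to 0.45). The cytosolic malate dehydrogenase Mdh1 fell by 0.30 on the log2 scale (SE 0.06, adjusted p = 0.00102), while mitochondrial Mdh2 had a difference of -0.05. Ogdh, the first subunit of the oxoglutarate dehydrogenase complex, was the exception that rose, by 0.36 ± 0.07. Citrate synthase (Cs), the cytosolic aconitase Aco1 and the succinyl-CoA ligase subunits Suclg1 and Sucla2 did not pass, with differences of -0.21 to 0.11.

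Markers of cell types also shifted between day 0 and day 4, and their part in the changes of the enzymes was not tested. The summed normalized intensity of 11 oligodendrocyte lineage markers was 109600 to 113650 at day 0 and 143160 to 171780 at day 4. These markers did not move alike. Mbp, Mag, Mog, Mobp, Cnp and Ugt8 were higher on every day 4 array than on any day 0 array. Olig1, Olig2, Sox10, Pdgfra and Cspg4 were lower on every day 4 array than on any day 0 array. The summed intensity of 11 neuronal markers was 7142 to 7420 at day 0 and 3110 to 3260 at day 4. That of 8 microglia and macrophage markers was 15597 to 20431 and 7645 to 16155. That of 8 astrocyte markers was 23819 to 25533 and 18511 to 24407, with Gja1 (1.37), Slc1a2 (1.26) and Aqp4 (1.18) higher and Slc1a3 (-0.61) and Gfap (-0.42) lower at day 4. That of 8 fibroblast, endothelial and pericyte markers, with Cdh5 and Rgs5 detected on no array, was 683 to 750 and 1832 to 3270, and that of 8 markers of dividing cells 2750 to 4745 and 6847 to 8356.

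**Figure D2:**
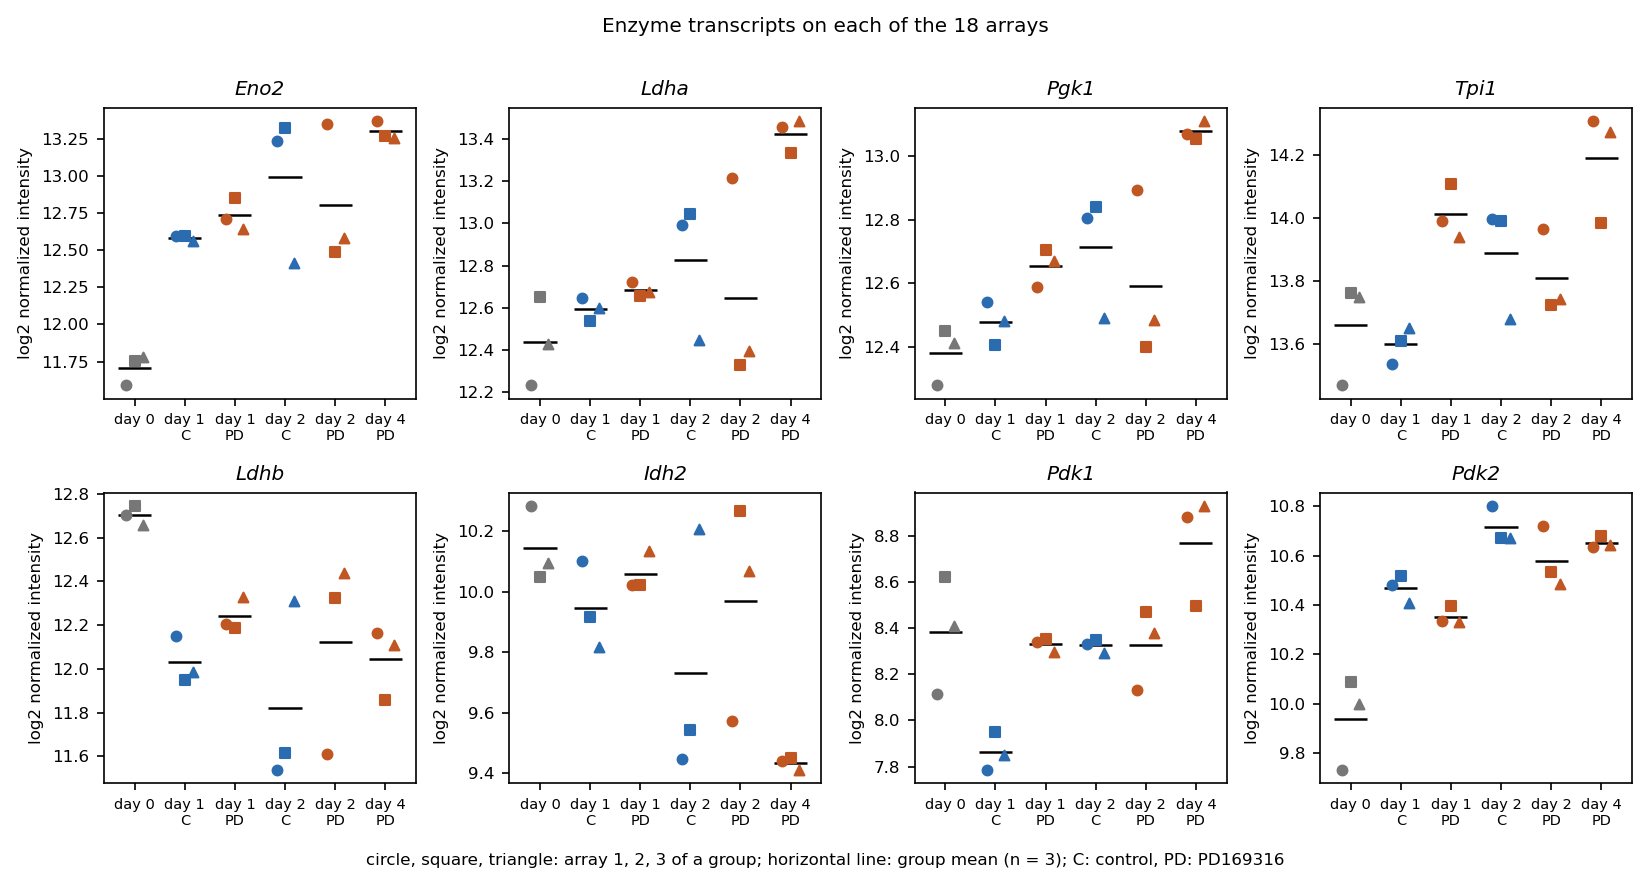
Log2 normalized intensity (y axis) of 8 enzymes on each array, with groups in time order, arrays 1 to 3 as circle, square and triangle, and the group mean as a line. Eno2, Ldha, Pgk1 and Tpi1 are highest on average at day 4 PD169316, Ldhb and Idh2 highest at day 0, and the day 2 arrays spread over both levels, with control 3 (triangle) and PD169316 1 (circle) away from the rest of their labelled group.

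The promoter windows of Eno2 and Ldha, among the enzymes that rose most, and of Idh2 and Ldhb, which fell most, are printed. They show the letters of a motif that was looked for, ACGTG, the core of the hypoxia response element and part of the E-box CACGTG. RefSeq promoter windows of build GRCr8, from 250 bases before to 50 after a start site, were matched by symbol for 33 of the 35 genes on the list. Both strands were searched, so a CACGTG holds ACGTG on each strand. Capitals mark every ACGTG, with CACGT its reverse complement. The windows shown are Ldha at chr1:106507842-106508141 on the plus strand, Eno2 at chr4:159267171-159267470 on the minus strand, Ldhb at chr4:177177359-177177658 on the minus strand and Idh2 at chr1:143467199-143467498 on the minus strand.
Ldha: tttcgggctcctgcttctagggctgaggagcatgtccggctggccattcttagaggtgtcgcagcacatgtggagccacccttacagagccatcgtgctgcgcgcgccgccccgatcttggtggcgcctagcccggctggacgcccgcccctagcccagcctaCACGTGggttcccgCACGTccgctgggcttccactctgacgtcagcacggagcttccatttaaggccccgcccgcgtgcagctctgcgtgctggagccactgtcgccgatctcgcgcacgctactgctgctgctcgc
Eno2: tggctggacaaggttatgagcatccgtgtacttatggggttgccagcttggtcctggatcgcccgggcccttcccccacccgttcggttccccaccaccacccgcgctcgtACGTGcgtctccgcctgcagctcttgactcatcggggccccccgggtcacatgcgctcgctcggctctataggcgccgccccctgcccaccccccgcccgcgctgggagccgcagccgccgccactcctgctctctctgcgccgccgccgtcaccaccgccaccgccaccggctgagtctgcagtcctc
Ldhb: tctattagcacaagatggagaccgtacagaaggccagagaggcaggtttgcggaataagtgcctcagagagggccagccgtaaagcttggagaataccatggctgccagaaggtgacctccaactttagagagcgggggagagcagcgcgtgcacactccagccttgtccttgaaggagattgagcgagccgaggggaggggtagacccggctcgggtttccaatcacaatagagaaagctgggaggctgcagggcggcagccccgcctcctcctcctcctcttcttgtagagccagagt
Idh2: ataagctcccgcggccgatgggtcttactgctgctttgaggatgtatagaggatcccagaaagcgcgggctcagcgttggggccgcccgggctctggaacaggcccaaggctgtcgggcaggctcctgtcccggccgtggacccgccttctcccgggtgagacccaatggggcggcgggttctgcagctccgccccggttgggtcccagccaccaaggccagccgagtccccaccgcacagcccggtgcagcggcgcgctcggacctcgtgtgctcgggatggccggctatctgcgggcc
The Ldha window holds an E-box and, nearer the start site, an ACGTG on the opposite strand, and the Eno2 window holds 1 ACGTG. The windows of Ldhb and Idh2 hold none. Over genes with at least 1 window, ACGTG was found for 16 of 33 listed enzymes (48.5%) and for 5746 of 27457 genes in all (20.9%), and CACGTG for 4 of 33 (12.1%) and 1943 of 27457 (7.08%). Of the enzymes that rose by day 4 and had a window, 8 of 10 held ACGTG (Aldoa in 1 of its 3 windows), of those that fell 1 of 6, and of those that did not pass 4 of 12. Pfkl, which rose about as much as Ldha, and Tpi1 held none. Genes with several windows have more chances of a match, and a match is only a description of letters in the window.

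Between day 0 and day 1 control 5 enzymes rose and 4 fell, 30% of the set, against 27.1% of all probes (13.8% higher and 13.3% lower). Those that rose were Eno2 (0.87 ± 0.22), Pfkl (0.59 ± 0.21), Pdk2 (0.53 ± 0.09), Aldoa (0.34 ± 0.11) and Ogdh (0.29 ± 0.07). Those that fell were Ldhb (-0.67 ± 0.20), Pdk1 (-0.52 ± 0.13), Idh3b (-0.28 ± 0.08) and Mdh1 (-0.21 ± 0.06). Markers moved between the same arrays, and their part was not tested. The summed intensity of 8 microglia and macrophage markers was 15597 to 20431 at day 0 and 11130 to 12028 in day 1 control, with Tyrobp (-0.99) and Aif1 (-0.73) lower. That of 11 neuronal markers was 7142 to 7420 and 4815 to 5220, with Gad1 lower but Syt1 and Nefm higher on average. Ldha, at 12.65, 12.54 and 12.60 in day 1 control, overlapped its day 0 range of 12.23 to 12.65. The count of 9 became 4 without day 0 replicate 2 or day 1 control 3, and 5 without day 0 replicate 1 or day 1 control 2. Single calls were lost without any 1 of 13 libraries for Pfkl, 8 for Aldoa, 4 for Ldhb and Mdh1 and 3 for Idh3b. The split depended on the scaling, with 6 higher and 3 lower after scaling to the 75th percentile. With the deposited values it was 0 higher and 4 lower, and the median of all probes itself fell by 0.25 from day 0.

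Against day 0, day 1 PD169316 showed 7 enzymes higher and 1 lower, or 26.7% of the set against 31.2% of all probes (16.2% higher and 14.9% lower). The count was 4 without day 0 replicate 1 or day 1 PD169316 1 and 5 without day 1 PD169316 2. The comparisons with day 0 share the day 0 arrays, so their values are given side by side only. Eno2 was 1.03 ± 0.22 above day 0 with PD169316, next to 0.87 ± 0.22 in the control, and Pdk2 0.41 ± 0.09 next to 0.53 ± 0.09. Ldhb was 0.67 below day 0 in the control, and with PD169316 its difference of -0.46 did not pass. On the deposited values this split became 1 higher and 7 lower.

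At day 1 PD169316 was compared with control in the same way. An enzyme that did not pass is not thereby shown to be unchanged. Against day 1 control 2 of 30 passed, both higher, which is 6.67% of the set, while 11.1% of all probes passed, 6.59% higher and 4.48% lower. Pdk1 was at 7.79, 7.95 and 7.85 in day 1 control and at 8.34, 8.35 and 8.30 in day 1 PD169316, a difference of 0.47 ± 0.13 (1.38-fold, adjusted p = 0.0298). Day 0 arrays were at 8.12 to 8.62, so the control arrays of day 1 were the low ones. Tpi1 was at 13.54, 13.61 and 13.65 in day 1 control and at 13.99, 14.11 and 13.94 with PD169316, a difference of 0.41 ± 0.12 (adjusted p = 0.0309). Neither group of arrays overlapped the other, but both calls were lost when any 1 of the 6 day 1 libraries was left out, with adjusted p up to 0.563 for Pdk1 and 0.452 for Tpi1 over the alternatives.

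**Figure D3:**
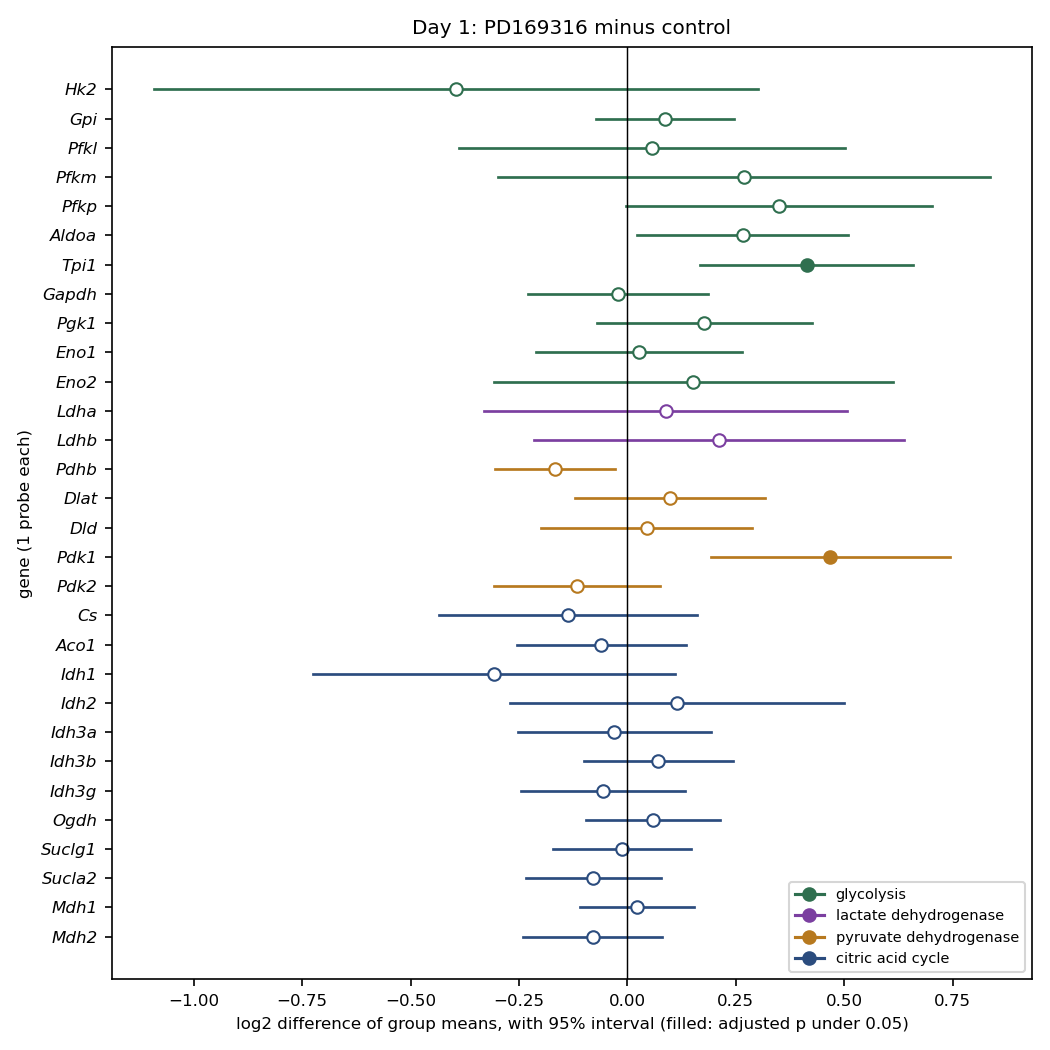
Log2 difference of PD169316 minus control at day 1 for the 30 enzymes (x axis), with 95% intervals and filled points where the adjusted p was under 0.05. Only Tpi1 at 0.41 and Pdk1 at 0.47 are filled, and the intervals of most other enzymes cross 0.

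The other 28 enzymes had differences between -0.40 (Hk2) and 0.35 (Pfkp). Hk2 was of low signal and was not detected on every array of day 1 PD169316. The arrays of the 2 groups did not overlap for 12 of the 30 enzymes (40%), 9 higher with PD169316 and 3 lower, and for 41.5% of all probes (20.8% higher and 20.7% lower). The higher ones were Pfkm, Pfkp, Aldoa, Tpi1, Pgk1, Eno2, Ldha, Ldhb and Pdk1, and the lower ones Pdhb, Pdk2 and Idh1. For Ldha the difference was 0.09 with a 95% interval of -0.33 to 0.51, and for Gapdh -0.02 with an interval of -0.23 to 0.19. The shared spread includes the day 2 arrays. Without the libraries labelled day 2 control 3 and day 2 PD169316 1, 6 enzymes passed (4 higher and 2 lower), and 4 passed without any day 2 library. The cause of these moves was not tested. Markers of other cell states moved between the same arrays, and their part in these differences was not tested. The summed normalized intensity of 8 measured markers of dividing cells, with Ccnb1 detected on no array, was 3398 to 3589 in day 1 control and 8811 to 9617 with PD169316, that of 11 oligodendrocyte lineage markers 112600 to 114020 and 85504 to 88217, and that of 11 neuronal markers 4815 to 5220 and 7614 to 8410. For 8 astrocyte markers it was 26043 to 26696 and 18400 to 19718. The neuronal markers did not move alike. Map2, Nefm and Slc17a6 were lower on average with PD169316 and the others higher, among them Gad1 (means 11.10 and 11.97) and Syt1 (10.40 and 11.14). Of the astrocyte markers S100b and Fgfr3 were higher on average and the others lower.

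At day 2 no enzyme passed between PD169316 and control, nor did any of the 10574 probes (0%, in either direction). By limma, 469 probes (4.44%) and 1 of the 30 enzymes, Idh3a, had an unadjusted p under 0.05. The arrays did not sort by label. Ldha was at 12.99, 13.05 and 12.45 in control and 13.22, 12.33 and 12.40 in PD169316, and Ldhb at 11.54, 11.62 and 12.31 in control and 11.61, 12.32 and 12.44 in PD169316. Control 3 thus lay with PD169316 2 and 3, and PD169316 1 with control 1 and 2. Eno2 (13.23, 13.32 and 12.42 against 13.35, 12.49 and 12.58) and Idh2 (9.45, 9.54 and 10.21 against 9.57, 10.27 and 10.07) were arranged in the same way. Cell type markers were arranged so too, and their part was not tested. Of 8 astrocyte markers 6 were lower on control 1 and 2 and PD169316 1 than on the other arrays, with sums of 17827, 16821 and 27500 in control and 18666, 27236 and 27661 in PD169316. Of 11 oligodendrocyte lineage markers 6, myelin genes such as Mbp and Mog among them, were higher on those 3 arrays and 4, such as Pdgfra, lower, and of 8 microglia and macrophage markers 4 were lower.

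Of the 30 enzymes, 12 were higher on all 3 of control 1, control 2 and PD169316 1 than on any of the other day 2 arrays, among them Eno2, Ldha, Pgk1, Tpi1, Gapdh, Hk2 and Idh1. For 6 enzymes, Pfkm, Pfkp, Ldhb, Idh2, Idh3b and Idh3g, all 3 were lower, and for 12 the values overlapped. Hk2 was of low signal, at 5.29 to 6.72 on the day 2 arrays, and was detected on some of them only. These sets of arrays were noticed in the data and are not the study's groups, so they were not tested. The share of all probes that parted the same sets was not counted. Since the arrays lay so over all probes too, these counts show no trait particular to the enzymes. By label, the arrays did not overlap for 1 enzyme, Gpi, with 13.45, 13.37 and 13.41 in control and 13.47, 13.47 and 13.47 in PD169316, against 6.34% of all probes. Over the 30 enzymes, each minus its day 0 mean, which all arrays share, control 3 correlated at 0.91 and 0.87 with PD169316 2 and 3 and at 0.66 and 0.57 with control 1 and 2. PD169316 1 correlated at 0.95 and 0.98 with control 1 and 2 and at 0.48 and 0.42 with PD169316 2 and 3.

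**Figure D4:**
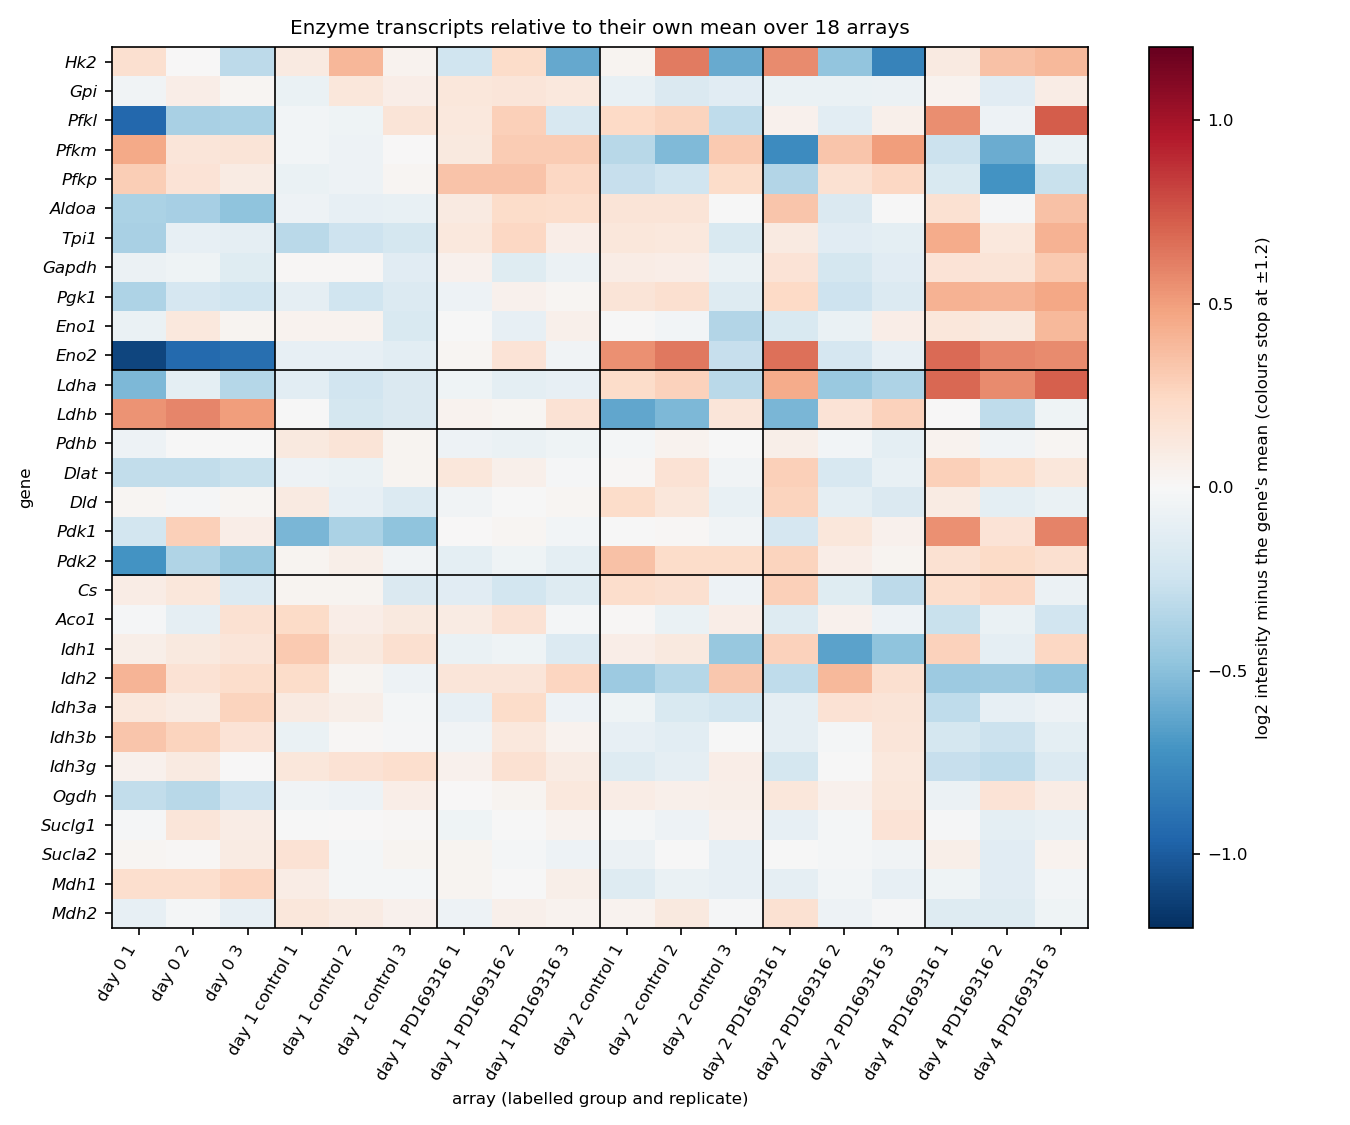
Log2 intensity of the 30 enzymes (rows, ordered by role) on the 18 arrays (columns, by labelled group), each minus the gene's mean over all arrays, with red above and blue below that mean. Among the day 2 columns, control 3 resembles PD169316 2 and 3 and PD169316 1 resembles control 1 and 2, most visibly for Eno2, Ldha, Ldhb, Idh1 and Idh2.

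With the libraries labelled day 2 control 3 and day 2 PD169316 1 left out together, 12 enzymes passed at day 2, 4 higher with PD169316 (Pfkm, Pfkp, Ldhb and Idh2) and 8 lower (among them Eno2, Ldha, Pgk1 and Idh1). These libraries were picked by their own values, so that count is no independent test of PD169316. They lay apart from their labelled group over all probes, and the share of all probes that passed in this fit is not given beside the count. The test of whether the PD169316 effect differed between the days passed for no enzyme under the labels, against 3.85% of all probes (1.52% higher and 2.33% lower). Without day 2 control 3 it passed for 1 enzyme. The smallest adjusted p was that of Tpi1 (difference between the days -0.49, adjusted p = 0.117).

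In the control cultures at day 2, 7 enzymes were higher and 4 lower than at day 0, 36.7% of the set against 42.2% of all probes (20.6% higher and 21.6% lower). The count was 7 without day 2 control 2, and the split was 1 and 13 on the deposited values. Eno2 was 1.28 ± 0.22 above day 0 (adjusted p = 0.000254), Pdk2 0.78 ± 0.09 above and Ldhb 0.88 below. Without the libraries labelled day 2 control 3 and day 2 PD169316 1 the count was 17 (9 higher and 8 lower), with Eno2 at 1.57 above and Ldhb at 1.12 below. With PD169316 at day 2, 6 were higher and 3 lower, 30% against 36.3% of all probes (17.9% higher and 18.4% lower), with Eno2 at 1.10 ± 0.22 above day 0. That count was 5 without day 0 replicate 1, and the split was 1 and 5 on the deposited values. Without the same pair of libraries it was 7 (4 higher and 3 lower), with Eno2 at 0.83 above day 0. Between day 1 and day 2 control only Pdk1 passed, with 8.33, 8.35 and 8.29 at day 2 and a difference of 0.46 ± 0.13 (adjusted p = 0.0224), while 17.4% of all probes passed (8.42% higher and 8.97% lower). The call of Pdk1 was lost without day 1 control 1 or 3 or day 2 control 1 or 2. The count of enzymes was 10 without both of those libraries, and rose to 6 without day 2 control 3, to 3 without day 2 PD169316 1 and to 2 without day 0 replicate 1, and with 75th percentile scaling 1 was higher and 1 lower.

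From day 2 to day 4 with PD169316, 4 enzymes rose and 1 fell, 16.7% of the set against 23.2% of all probes (10.2% higher and 13.1% lower). They were Ldha (0.78 ± 0.20, adjusted p = 0.0122), Pgk1 (0.49 ± 0.12), Pdk1 (0.44 ± 0.13) and Tpi1 (0.38 ± 0.12), and Idh2 fell by 0.54 on the log2 scale. For Ldha the lowest day 4 array, at 13.33, lay above the highest of day 2 PD169316, at 13.22. This count rests on single libraries, and the call of Idh2 was lost without any 1 of 12. Without day 2 control 3 and day 2 PD169316 1 together it was 17, with Ldha at 1.06, Pgk1 at 0.64 and Idh2 at -0.73, and Pdk1 no longer among the calls. It was 15 without day 2 PD169316 1, 8 without day 2 control 3, 1 without either day 2 PD169316 2 or 3, and 2 without either day 4 PD169316 1 or 3. It was 0 when the 6 arrays compared were fitted alone, and on the deposited values 6 were higher and 0 lower.

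Genes that work next to these enzymes were counted in 6 lists. Their counts for day 4 against day 0 stand beside 23.2% of all probes higher and 27.5% lower, and no list was tested against that share. For transport of glucose, lactate and pyruvate, 7 of 15 genes were tested, and 4 rose and 2 fell between day 0 and day 4 PD169316, or 6 of 7, against 50.7% of all probes. The monocarboxylate transporter Slc16a1, which carries lactate and pyruvate across membranes, was at 10.11, 9.80 and 9.89 at day 0 and at 11.66, 12.14 and 11.56 at day 4, a difference of 1.86 ± 0.13 (3.62-fold, adjusted p = 4.07e-08). Slc16a3, the transporter typical of glycolytic cells, was at 7.24, 7.81 and 7.58 at day 0, at 7.16, 6.08 and 5.86 in day 2 PD169316 and at 8.46, 8.82 and 8.35 at day 4. It was thus highest at day 4, 1.00 ± 0.39 above day 0 (adjusted p = 0.042, lost without any 1 of 8 libraries) and 2.18 ± 0.39 above day 2 PD169316 (adjusted p = 0.00185), or 2.57 without day 2 control 3 and day 2 PD169316 1. The fructose transporter Slc2a5 fell by 0.63 on the log2 scale between day 0 and day 4 (a call lost without day 0 replicate 2 or 3 or day 4 PD169316 1 or 3).

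Among 14 tested genes of anaplerosis and the redox shuttles 5 rose and 3 fell by day 4, or 8 of 14, near the 50.7% of all probes. Gpd1, the cytosolic glycerol-3-phosphate dehydrogenase, was at 10.77, 10.71 and 10.92 at day 0 and at 12.63, 12.82 and 12.68 at day 4 (difference 1.91 ± 0.12, adjusted p = 1.25e-08). The malic enzymes, which turn malate into pyruvate, parted. Me2 rose by 1.40 ± 0.16, and Me3 fell by 2.92 on the log2 scale (SE 0.62), from 9.65, 9.45 and 9.47 to 6.65, 6.39 and 6.78. Me1 was higher at day 4, at 10.01, 10.01 and 9.96, than at day 0, at 8.70, 9.14 and 8.96. Me3 was also lower with PD169316 at day 1, at 6.23, 6.35 and 6.52 against 8.36, 8.53 and 8.55 in control, a difference of -2.11 ± 0.62 (adjusted p = 0.0386). That call was lost without any 1 of 9 libraries. Me1 was 0.51 ± 0.14 higher with PD169316 at day 1, and Pc, which makes oxaloacetate from pyruvate, was 0.30 lower, each a call lost without any 1 of 5 libraries.

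**Figure D5:**
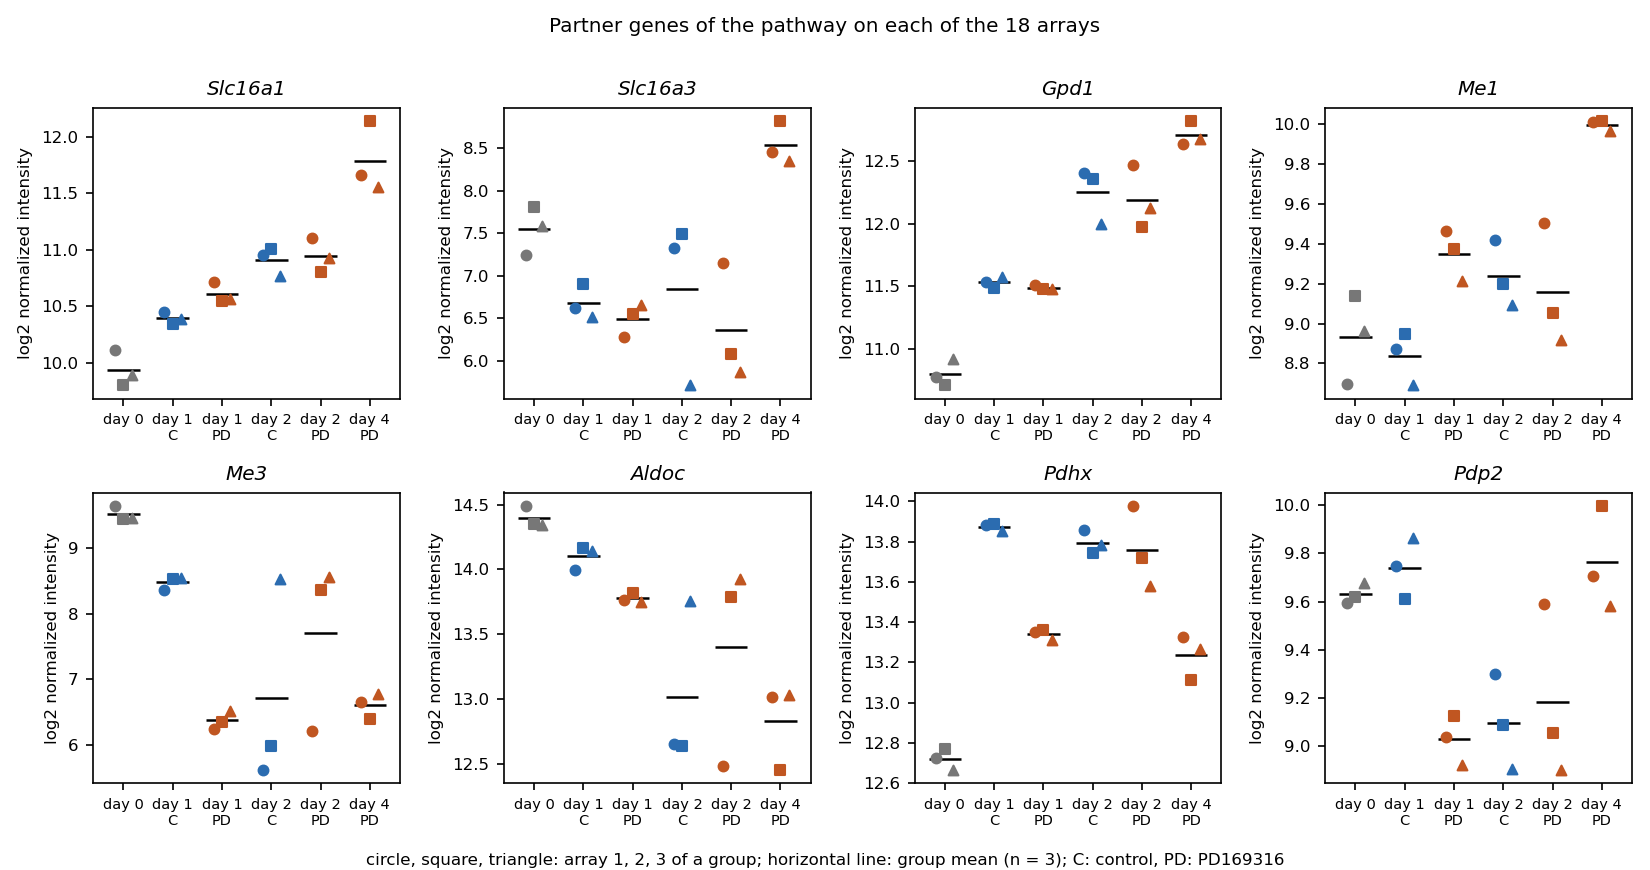
Log2 normalized intensity (y axis) of 8 partner genes on each array, with groups in time order, arrays 1 to 3 as circle, square and triangle, and the group mean as a line. Slc16a1, Slc16a3, Gpd1 and Me1 are highest at day 4 PD169316, Me3 and Aldoc highest at day 0, and Pdhx and Pdp2 are lower in day 1 PD169316 than in day 1 control.

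In the rest of the pyruvate dehydrogenase complex and cycle 9 of 14 genes were tested, and 2 rose and 2 fell by day 4, or 4 of 9, near the 50.7% of all probes. Pdhx, which anchors Dld to the complex, was at 12.72, 12.77 and 12.67 at day 0, at 13.88, 13.89 and 13.85 in day 1 control and at 13.35, 13.36 and 13.31 in day 1 PD169316. It was 1.15 ± 0.09 above day 0 in the control and 0.53 lower with PD169316 than in the control (SE 0.09, adjusted p = 0.00112), with no overlap among the 3 groups. Pdp2, a phosphatase that switches the complex back on, was at 9.75, 9.61 and 9.86 in day 1 control and at 9.04, 9.12 and 8.92 with PD169316, a difference of -0.71 ± 0.16 (adjusted p = 0.00748). The kinase Pdk3 fell by 0.54 on the log2 scale between day 0 and day 4, where Pdk1 and Pdk2 rose.

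Of 8 other glycolytic isoforms and regulators tested, 3 rose and 1 fell by day 4, or 4 of 8, near the 50.7% of all probes. Adpgk, an ADP-dependent glucokinase, rose by 1.02 ± 0.12, and Pgm1, which links glycogen to glycolysis, by 0.44 ± 0.10. The brain-type aldolase Aldoc fell by 1.56 on the log2 scale (SE 0.33), from 14.49, 14.35 and 14.34 to 13.02, 12.45 and 13.03, where Aldoa rose. Of 4 pentose phosphate pathway genes none rose and 2 fell, Prps2 by -0.57 ± 0.13 and Rpia by -0.39 ± 0.11, again near the 50.7% of all probes.

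In the hypoxia response list, which holds genes induced by low oxygen and the factors that act in it, 9 of 16 tested genes rose and 1 fell by day 4, beside 23.2% of all probes higher and 27.5% lower, with a median of 0.43 against -0.03 over all probes. P4ha2, 1 of the 16, met the detection filter only through day 4 PD169316 and was detected on no array of the other groups. It could thus enter the comparison only by being high at day 4, and its value there is no support. The counts over the 16 genes and their median include P4ha2 and are not given without it. Ndrg1, which is also expressed in myelinating cells, rose by 2.88 ± 0.17, Adm by 1.62 ± 0.35 and the factor Epas1 by 1.33 ± 0.16. The gene that fell, named after its values were seen, was Hif1a, the oxygen-sensitive factor at the centre of the response, at 11.28, 11.18 and 11.41 at day 0 and 10.55, 10.50 and 10.71 at day 4 (difference -0.70 ± 0.08, adjusted p = 5.81e-06). At day 1 only Ero1a passed between PD169316 and control, 0.47 lower (SE 0.14, adjusted p = 0.0427, lost without any 1 of 7 libraries). The list was not tested as a set, and its part in the changes of the enzymes was not tested.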

How the data were processed

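Total RNA was labelled as cRNA by the authors and read on RatRef-12 arrays. The intensity values they deposited are mean bead signals per probe, linear, without background subtraction or normalization. The authors also deposited a detection p-value, which compares each probe with the negative control beads. The deposited number of beads and standard error per probe were used as bead counts and as the spread of a probe's beads. The gene symbols are those of the array annotation.

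The neqc function of limma 3.58.1 (R 4.3.3) corrected the background, added an offset of 16, normalized by quantiles and gave log2 values of the deposited intensities. A probe was tested if some group had a detection p under 0.01 on each of its 3 arrays, which held for 10574 of 22523. Group means were fitted over all 18 arrays (12 residual and 3.16 prior degrees of freedom) and tested with eBayes, and p-values were adjusted by Benjamini-Hochberg over all probes tested. Intervals are at 95% confidence. Promoter windows were searched in Python 3.11.15 with pandas 2.3.3, and matplotlib 3.10.9 drew the figures.

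The enzymes and the gene lists were chosen with earlier results of these data known. Values on every array are given for up to 4 enzymes with the largest change in each direction in each comparison and for a fixed set of isoenzymes, and up to 3 passing genes of each other list are named per comparison. Enzymes outside this rule were named for their role. The sets of day 2 arrays were described after their values were seen. Alternatives were the deposited values, no background correction, 75th percentile scaling, no filter, a filter for detection on every array, a fit of the compared arrays alone, a block for the replicate number, an offset of 50, array weights, the fold threshold of the methods, all probes and leaving out each library. The procedure was tested on simulated data, where false calls were more frequent than the nominal rate, so that a call near the threshold is less certain than its adjusted p. The precision of a value is limited by 3 arrays a group.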

Additional observations from a re-analysis of the deposited data

Results flagged for a closer look

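The effect of PD169316 on Pdhx, the component that anchors dihydrolipoyl dehydrogenase to the pyruvate dehydrogenase complex, differed between the days in the test of that difference. It was -0.53 at day 1 and -0.04 at day 2, a difference of 0.50 (limma adjusted p = 0.0405). Over the alternatives the difference stayed between 0.38 and 0.59. The call was lost on the deposited values (adjusted p = 0.698), with 75th percentile scaling, with no filter and when only the arrays compared were fitted, and without any 1 of 13 libraries. It remained, at 0.38, without the libraries labelled day 2 control 3 and day 2 PD169316 1. Those were picked by their own values, so this adds no independent support. Pdhx was the only gene with such a difference among the enzymes and the 6 lists of related genes.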

How the results depend on the processing

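Counts of enzymes that passed moved by over 1.5 times as follows. With the deposited values 0 passed for PD169316 at day 1, 4 for day 1 control and 10 for day 4 PD169316 against day 0, and 0 between day 1 and day 2 control. That last count was 2 without background correction and with 75th percentile scaling, which left 1 for PD169316 at day 1. With no filter it was 0 for PD169316 at day 1, 5 for day 1 PD169316 against day 0 and 3 for day 4 against day 2 PD169316. With only the arrays compared it was 6 for PD169316 at day 1, 5 for day 2 PD169316 against day 0 and 0 for day 4 against day 2 PD169316. With array weights it was 6 for PD169316 at day 1 and 17 at day 2, 18 for day 2 control against day 0, 12 against day 1 control, 20 for day 4 against day 2 PD169316 and 9 for the difference between the days. At the fold threshold of the methods with an unadjusted p it was 8 for day 4 against day 2 PD169316 and 2 for the difference between the days. An alternative chosen after seeing the data, leaving out the libraries labelled day 2 control 3 and day 2 PD169316 1 gave 6 for PD169316 at day 1 and 12 at day 2, 17 for day 2 control against day 0, 10 against day 1 control, 17 for day 4 against day 2 PD169316 and 7 for the difference between the days, and leaving out all day 2 libraries gave 4 for PD169316 at day 1. Array weights use the arrays' own distance from their labelled group, and the pair of libraries was picked by such distance. All day 2 libraries were left out by label. The cause of none of these moves was tested.

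Leaving out 1 library at a time gave 0 to 2 for PD169316 at day 1, 0 to 0 at day 2, 4 to 10 for day 1 control, 7 to 14 for day 2 control, 4 to 11 for day 1 PD169316, 5 to 9 for day 2 PD169316 and 16 to 19 for day 4 PD169316 against day 0, 0 to 6 for day 2 against day 1 control, 1 to 15 for day 4 against day 2 PD169316 and 0 to 1 for the difference between the days. Of 4566 values of named genes under alternatives, 4120 kept their direction and side of the threshold, 442 no longer passed and 4 turned their direction, all on the deposited values: Ero1a in day 1 control (-0.039), Pgm1 in day 2 control (-0.12) and day 1 PD169316 (-0.013), and Pgls in day 1 PD169316 (-0.11), each against day 0. On those values the median of all probes shifted from day 0 by -0.12 to -0.28.

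With the replicate number as a block the counts were 2, 0, 8, 11, 1, 8, 8, 18, 5 and 0, in the order PD169316 at day 1 and day 2, day 1 control and day 2 control against day 0, day 2 against day 1 control, PD169316 at day 1, day 2 and day 4 against day 0, day 4 against day 2 PD169316, and the difference between the days. Deviations of arrays with the same number correlated at -0.53 to 0.56 over 45 pairs, and 6 of 18 libraries correlated best with their own number, so the numbers were not taken as pairs. Signal over background limits Hk2, which was not detected on 1 array each of day 1 PD169316, day 2 control and day 2 PD169316. Idh3a was also of low signal.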
